A study of Mus musculus with 6 samples.

Results

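The T cell and NK cell genes are 34 genes of the T cell receptor complex, its coreceptors and signalling proteins, costimulatory and inhibitory receptors, cytokine receptors, lineage transcription factors, cytotoxic granules and NK cell receptors. They were chosen by gene symbol from a fixed list, and 34 of 34 were found among the 18268 genes of the deposited table. Levels were measured by RNA sequencing in colorectal tissue of adult male C57BL/6 mice with colitis. Colitis was induced in all 6 mice with 7 days of dextran sulfate sodium (DSS), and gavage with 1 of the drugs went on for 6 days. Berberine (BBR), an alkaloid from plants, was given to 3 mice, and the other 3 received sulfasalazine (SASP), a prodrug that gut bacteria split into an aminosalicylate and a sulfonamide. DSS injures the epithelium directly, and its acute colitis also develops in mice that lack T and B cells. Mice without DSS or without a drug were not analysed here, and differences are therefore between the drugs.

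T cells recognise antigen through a receptor that signals through the CD3 chains, with CD4 or CD8 as coreceptor. NK cells kill without such a receptor and read activating and inhibitory ligands instead, and both cell types can deliver perforin and granzymes to a target. In the colon these lymphocytes sit within the epithelium, in the lamina propria and in lymphoid follicles, where they are a minority beside epithelium and muscle.

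Most of these genes were close to the limit of what the libraries could measure. Levels are given as FPKM, sequenced fragments relative to transcript length and to library size, a unit that allows levels of different genes to be compared. Of the 34 genes, 18 were under 1 FPKM in every mouse, 10 reached 1 FPKM in 1 or 2 mice, 4 in 3 to 5 mice, and 2, Cd274 and Il2rg, in all 6 mice. With depths estimated at 16900000 to 18300000 reads per library, 7 of the 34 genes rested on 10 or fewer reads in every mouse, and only Cd274 and Il2rg exceeded 100 reads in any mouse. Values of a few reads can differ by counting error alone, so they are mostly given as levels and not as fold changes.

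The libraries gave 11518 to 12307 genes at 1 FPKM or more. Epithelial markers, at a summed 10320 to 13430 FPKM in the BBR group and 10650 to 11190 FPKM in the SASP group, identified the tissue in both groups, and 12 of 12 passed the filter, with Krt18 and Cdx2 called higher and Vil1 called lower under BBR. BBR mouse 3 correlated least with its group (mean r = 0.951 across genes, against 0.968 to 0.989 for the other mice). Smooth muscle markers summed to 3579 to 8241 FPKM in the BBR group and 1010 to 2989 FPKM in the SASP group. Fibroblast markers summed to 308 to 417 and 149 to 244 FPKM, and endothelial markers to 17.9 to 39.3 and 11.0 to 15.9 FPKM. Higher under BBR without overlap were 8 of 12, 7 of 8 and 5 of 7 of them, where 18.5% of all genes above 0 were. Of the fibroblast markers 4 of 8 were called higher, where 3.82% of all genes tested were, and of the smooth muscle and endothelial markers 0. The part of these differences in the results below was not tested.

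Genes were tested where 3 or more mice reached 1 FPKM, as for 6 of the 34 genes: Cd3g, Lck, Cd274, Il2rg, Gzma and Nkg7. Of these, 1 was called lower in colitis mice receiving BBR and 0 higher by limma at an adjusted p under 0.05, and at an unadjusted p under 0.05 the counts were 2 and 0. Among all 12072 genes tested, 8.86% were called, 5.04% lower and 3.82% higher. With no filter 2 of the 34 genes were called, Cd274 and Il2ra, where 3.33% of all genes were. The median log2 fold change of the 6 genes was -0.53, against 0.10 over all genes tested, and the median over all 34 genes was -0.08, against 0.06 over all genes listed. In 28 of 34 genes the values of the groups overlapped. All BBR values lay below all SASP values in 4 genes, Icos, Pdcd1, Cd274 and Il2ra, and above them in 2, Tigit and Klrd1. Over all genes above 0 this was so in 12.2% and 18.5%, over those that failed the filter, as Icos, Pdcd1, Il2ra, Tigit and Klrd1 did, in 3.46% and 13.1%, and over those that passed it in 16.6% and 21.3%. Leaving out BBR mouse 2 gave 8 genes lower without overlap (15.5% of all genes above 0), and leaving out SASP mouse 2 gave 15 (15.3%). Leaving out BBR mouse 3 gave 6 genes higher (36.2%), and leaving out SASP mouse 1 gave 4 (20.3%). In these bulk samples, fewer cells of a type and less RNA per cell cannot be told apart.

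**Figure D1:**
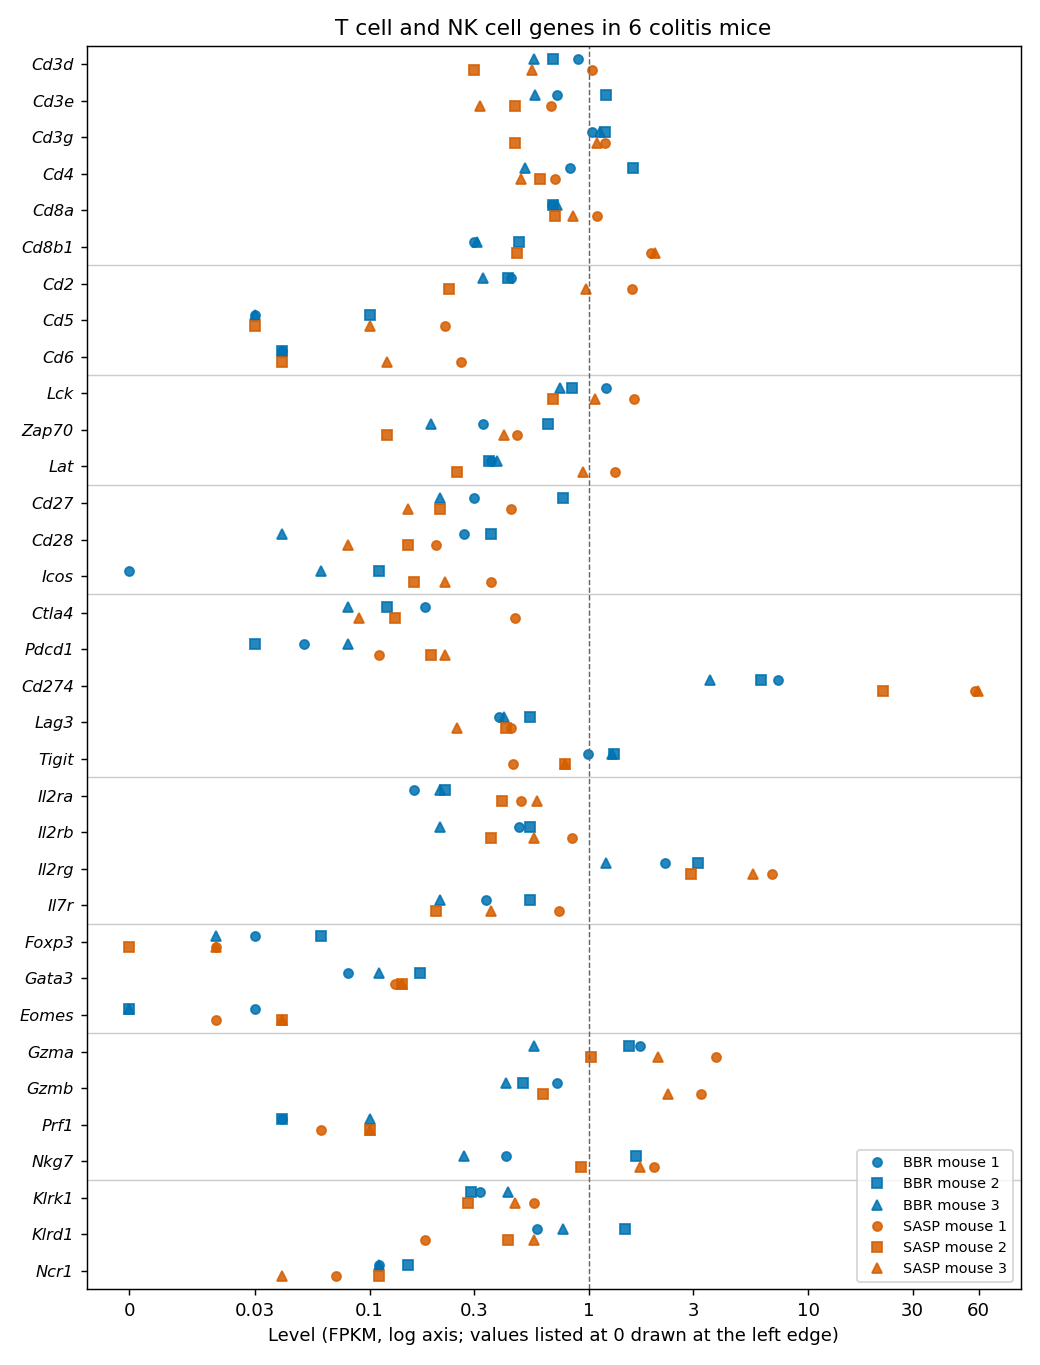
Level of each of the 34 genes in each mouse, on a log axis in FPKM, with BBR mice in blue and SASP mice in orange, a symbol shape per mouse, values of 0 at the left edge, genes grouped by role and the dashed line at 1 FPKM. Most points lie left of the line, and Cd274 stands apart at 22.06 to 59.63 FPKM in the SASP group.

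Genes of the antigen receptor complex were low, and the groups overlapped in 6 of 6. Cd3g, a CD3 signalling chain, was at 1.03, 1.19 and 1.12 FPKM in BBR mice 1, 2 and 3 and at 1.19, 0.46 and 1.09 FPKM in SASP mice 1, 2 and 3, or about 9 to 22 reads. The groups overlapped, and SASP mouse 2 was the low library. Its log2 fold change was 0.17 (95% confidence interval -0.28 to 0.61, limma adjusted p = 0.564), an interval that leaves room for changes in either direction. Cd3e, another chain of the complex, was at 0.72, 1.2 and 0.57 FPKM in the BBR group and 0.67, 0.46 and 0.32 FPKM in the SASP group, and Cd3d ranged from 0.56 to 0.89 and from 0.30 to 1.03 FPKM. In both genes the ranges overlapped, with BBR mouse 2 highest for Cd3e and SASP mouse 1 highest for Cd3d. Cd3d and Cd3e were the genes that joined Tigit and Klrd1 as higher without overlap when SASP mouse 1 was left out.

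Of the coreceptors, Cd4, which pairs with MHC class II, was at 0.82, 1.59 and 0.51 FPKM in the BBR group and 0.70, 0.60 and 0.49 FPKM in the SASP group. Only BBR mouse 2 was high. Cd8a, the CD8 chain shared by both CD8 dimers, was even among the BBR mice, at 0.68, 0.69 and 0.72 FPKM. In the SASP group it was at 1.09, 0.70 and 0.85 FPKM. The CD8 beta chain gene Cd8b1 varied more, at 0.30, 0.48 and 0.31 FPKM in the BBR group and 1.92, 0.47 and 2.0 FPKM in the SASP group, or about 8, 12 and 8 and about 51, 13 and 54 reads. SASP mice 1 and 3 lay above all BBR mice, while SASP mouse 2 lay among them. The ratio of Cd8b1 to Cd8a was accordingly 0.441, 0.696 and 0.431 in BBR and 1.76, 0.671 and 2.35 in SASP mice. The ratio of Cd8a to Cd4 was 0.829, 0.434 and 1.41 in BBR and 1.56, 1.17 and 1.73 in SASP mice, and the groups again overlapped.

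Of the surface proteins of the T cell lineage, Cd2, an adhesion receptor of T and NK cells, was at 0.44, 0.43 and 0.33 FPKM in the BBR group and 1.57, 0.23 and 0.97 FPKM in the SASP group. As for Cd8b1, SASP mice 1 and 3 were high and SASP mouse 2 was not. Cd5, a negative regulator of receptor signalling, was at 0.03 to 0.10 FPKM in the BBR group and 0.03 to 0.22 FPKM in the SASP group, at most about 8 reads. Its relative Cd6 was at 0.04 FPKM in all BBR mice and in SASP mouse 2, about 2 reads each, and at 0.26 and 0.12 FPKM in SASP mice 1 and 3.

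Among the proximal signalling genes, Lck, the kinase that phosphorylates CD3, was at 1.2, 0.84 and 0.74 FPKM in the BBR group and 1.61, 0.69 and 1.07 FPKM in the SASP group. The groups overlapped, with a log2 fold change of -0.12 (95% confidence interval -0.59 to 0.34, limma adjusted p = 0.687). Zap70, the kinase recruited to phosphorylated CD3, ranged from 0.19 to 0.65 FPKM in the BBR group and from 0.12 to 0.47 FPKM in the SASP group. Lat, the adaptor that Zap70 phosphorylates, was at 0.36, 0.35 and 0.38 FPKM in the BBR group and 1.32, 0.25 and 0.94 FPKM in the SASP group. The BBR values of Lat were nearly equal, and SASP mice 1 and 3 again lay above them and SASP mouse 2 below.

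**Figure D2:**
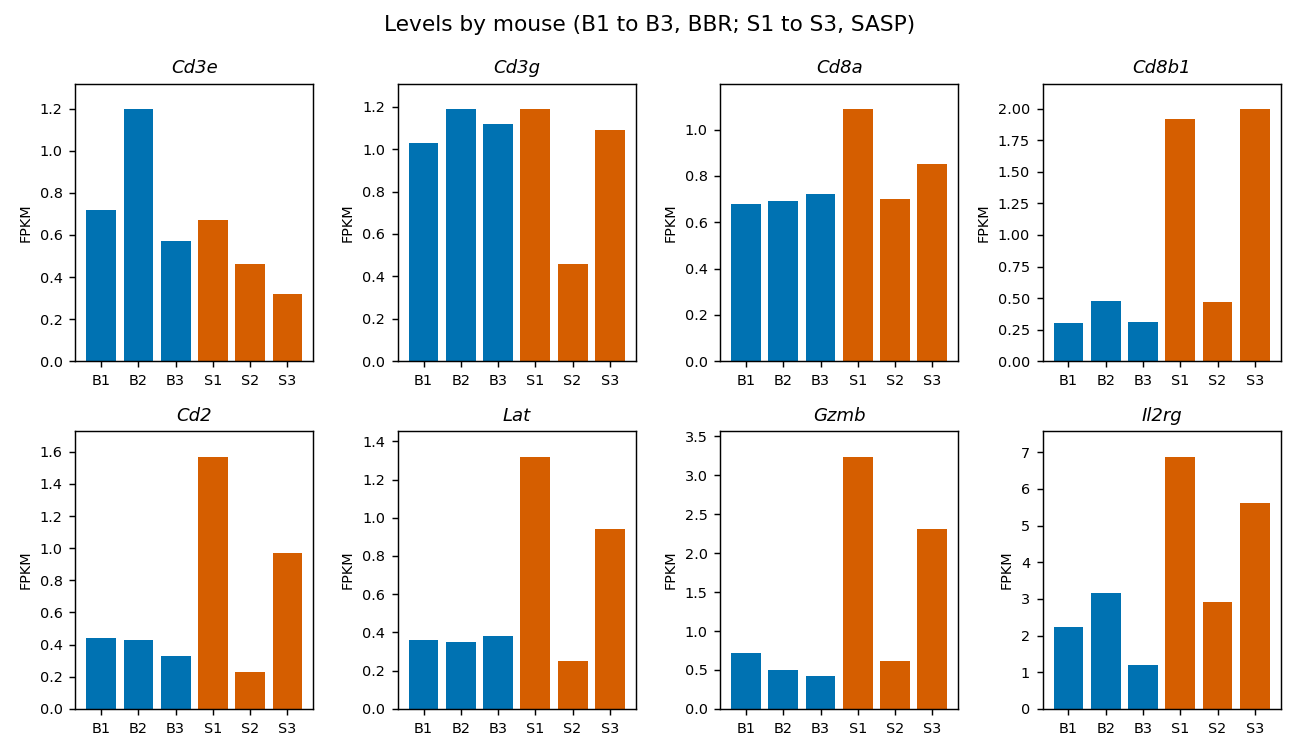
FPKM in each of the 3 BBR mice (B1 to B3, blue) and 3 SASP mice (S1 to S3, orange) for 8 genes, each bar 1 mouse and each axis starting at 0. Cd8b1, Cd2, Lat, Gzmb and Il2rg are high in S1 and S3 and within or under the BBR range in S2, Cd8a has that shape with a smaller margin, and Cd3e and Cd3g do not have it.

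Costimulatory receptors stayed under 1 FPKM in every mouse. Icos, a receptor of activated T cells, was listed at 0 in BBR mouse 1, and BBR mice 2 and 3 had 0.11 and 0.06 FPKM, against 0.36, 0.16 and 0.22 FPKM in the SASP group. The groups did not overlap, on about 0 to 6 reads in BBR and 9 to 21 reads in SASP mice. Cd28, the main costimulatory receptor of T cells, ranged from 0.04 to 0.36 FPKM in the BBR group and from 0.08 to 0.20 FPKM in the SASP group. Cd27, of the TNF receptor family, ranged from 0.21 to 0.76 and from 0.15 to 0.44 FPKM, and the groups overlapped in both.

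Of the 6 tested genes the largest difference was in Cd274, which encodes PD-L1, the ligand of the inhibitory receptor PD-1. PD-L1 is made by many cell types other than T cells, epithelial and myeloid cells among them, and interferon gamma is a known inducer. Cd274 (Gene ID 60533) was at 7.32, 6.12 and 3.57 FPKM in the BBR group and 57.91, 22.06 and 59.63 FPKM in the SASP group. Every SASP mouse was above every BBR mouse, on about 219 to 449 reads in BBR and 1461 to 3899 reads in SASP mice. Means of the 3 mice were 5.67 ± 1.92 FPKM under BBR and 46.5 ± 21.2 FPKM under SASP (SD), 8.21-fold higher under SASP. The log2 fold change was -2.75 (SE 0.41, 95% confidence interval -3.71 to -1.79, limma adjusted p = 0.0164). The call was lost without BBR mouse 1, SASP mouse 1 or SASP mouse 3 (adjusted p = 0.0529, 0.0813 and 0.0772), with log2 fold changes of -2.93, -2.53 and -2.51. It was kept without SASP mouse 2 (-3.21), the SASP mouse with the lowest level.

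The promoter of Cd274 is shown because this was the 1 gene of the 34 called. The RefSeq sequence of GRCm38.p6 at chr19:29367188-29367487, plus strand, runs from 250 bases before the start site to 50 bases after it. Capitals mark a match to GAAANNGAA, letters found in interferon regulatory factor elements, which lies on the minus strand from 76 to 68 bases before the start site.
Cd274: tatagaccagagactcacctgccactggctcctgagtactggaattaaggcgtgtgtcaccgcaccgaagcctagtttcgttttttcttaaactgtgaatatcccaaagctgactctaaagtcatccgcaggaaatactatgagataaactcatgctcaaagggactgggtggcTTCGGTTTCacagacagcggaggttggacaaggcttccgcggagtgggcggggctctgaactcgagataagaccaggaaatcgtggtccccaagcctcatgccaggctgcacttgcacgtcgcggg
These letters were chosen after the sequence had been read. Searched on both strands, they are present in 8.56% of 32851 promoters of the same length. They are also in those of 5 of the 25 genes of the list that have one in the table, Cd274, Ctla4, Eomes, Gzma and Klrk1. These 25 genes have 30 promoters, so the count of genes and the share of promoters are not the same measure. The same letters followed by a further A were in 3.44% of all promoters and were matched in Eomes and Gzma but not in Cd274. A match is a run of letters and does not show binding.

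The inhibitory receptors themselves were at low levels. Pdcd1, which encodes PD-1, was at 0.05, 0.03 and 0.08 FPKM in the BBR group and 0.11, 0.19 and 0.22 FPKM in the SASP group. The groups did not overlap, but the values were worth about 1 to 3 reads in BBR and 4 to 8 reads in SASP mice. Ctla4, which competes with Cd28 for its ligands, ranged from 0.08 to 0.18 FPKM in the BBR group and from 0.09 to 0.46 FPKM in the SASP group, with SASP mouse 1 alone above the rest. Lag3, a receptor for MHC class II, ranged from 0.39 to 0.54 and from 0.25 to 0.44 FPKM, and the groups overlapped. Tigit, an inhibitory receptor of T and NK cells, went the other way, at 0.99, 1.30 and 1.28 FPKM in the BBR group and 0.45, 0.78 and 0.78 FPKM in the SASP group. All BBR mice were above all SASP mice, on about 15 to 20 and 7 to 13 reads, but only 2 mice reached 1 FPKM, so Tigit was not tested with the filter (adjusted p = 0.118 in limma with no filter).

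Of the cytokine receptor subunits, Il2rg, the common gamma chain of several interleukin receptors, was the most abundant. It was at 2.23, 3.15 and 1.2 FPKM in the BBR group and 6.88, 2.92 and 5.61 FPKM in the SASP group. SASP mice 1 and 3 were above all BBR mice, and SASP mouse 2 lay between BBR mice 1 and 2. The log2 fold change was -0.93 (95% confidence interval -1.70 to -0.16), which did not pass the threshold over all genes (limma adjusted p = 0.106). Il2ra, the alpha chain of the IL-2 receptor found on regulatory and activated T cells, was at 0.16, 0.22 and 0.21 FPKM in the BBR group and 0.49, 0.40 and 0.58 FPKM in the SASP group. Each group was tight and the groups did not overlap, on about 12 to 17 and 32 to 46 reads. Il2ra lay below the filter, and it was called lower under BBR by limma with no filter (log2 fold change -0.31, adjusted p = 0.0472), where 2.1% of 18260 genes were called lower. Il2rb, the beta chain shared by the IL-2 and IL-15 receptors, and Il7r, the IL-7 receptor of resting T cells and innate lymphoid cells, overlapped between the groups, at 0.21 to 0.54 against 0.36 to 0.84 FPKM and at 0.21 to 0.54 against 0.20 to 0.73 FPKM.

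Lineage transcription factors gave almost no signal. Foxp3, which defines regulatory T cells, was at 0.03, 0.06 and 0.02 FPKM in the BBR group and was listed at 0.02, 0 and 0.02 FPKM in the SASP group, at most about 4 reads. Eomes, a factor of NK and cytotoxic T cells, was above 0 in only 1 BBR mouse and reached 0.04 FPKM in 2 SASP mice. Gata3, a factor of type 2 helper T cells and innate lymphoid cells, ranged from 0.08 to 0.17 FPKM in the BBR group and from 0.13 to 0.14 FPKM in the SASP group. A difference in these 3 genes was not detectable at this depth.

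Cytotoxic granule genes varied widely between mice of the same group. Gzmb, a granzyme that activates caspases, was at 0.72, 0.50 and 0.42 FPKM in the BBR group and 3.24, 0.62 and 2.31 FPKM in the SASP group, or about 10 to 18 reads in BBR and 83, 16 and 60 reads in SASP mice. SASP mice 1 and 3 stood above all BBR mice, and SASP mouse 2 was within the BBR range. Gzma, a granzyme with trypsin-like activity, was at 1.71, 1.52 and 0.56 FPKM in the BBR group and 3.82, 1.02 and 2.07 FPKM in the SASP group, with a log2 fold change of -0.50 (95% confidence interval -1.33 to 0.34, limma adjusted p = 0.358). Nkg7, a granule membrane protein, was at 0.42, 1.65 and 0.27 FPKM in the BBR group and 1.98, 0.92 and 1.72 FPKM in the SASP group, with a log2 fold change of -0.57 (95% confidence interval -1.31 to 0.17, adjusted p = 0.252). In both, SASP mouse 2 lay within the BBR range. Prf1, the pore-forming perforin gene, was at 0.04 to 0.10 FPKM in the BBR group and 0.06 to 0.10 FPKM in the SASP group, at most about 5 reads.

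**Figure D3:**
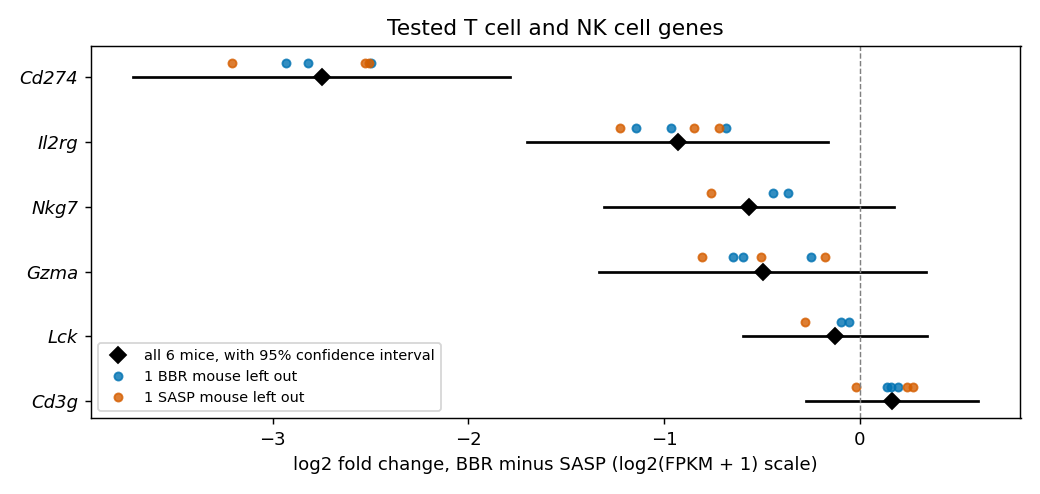
log2 fold change, BBR minus SASP, on the log2(FPKM + 1) scale for the 6 genes tested, with all mice (black, lines are 95% confidence intervals) and with each mouse left out (blue for BBR, orange for SASP). Cd274 stays between -3.21 and -2.50 in every fit, and the intervals of Cd3g, Lck, Gzma and Nkg7 cross 0. Lck and Nkg7 have fewer points because leaving out some mice put them below the filter.

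NK cell receptor genes differed among themselves. Klrd1, which encodes CD94, a partner chain of NKG2 receptors, was at 0.58, 1.47 and 0.76 FPKM in the BBR group and 0.18, 0.43 and 0.56 FPKM in the SASP group. All BBR mice were above all SASP mice, by a small margin between BBR mouse 1 and SASP mouse 3, on about 9 to 22 and 3 to 9 reads. Klrk1, the activating receptor NKG2D, was at 0.29 to 0.43 FPKM in the BBR group and 0.28 to 0.56 FPKM in the SASP group. Ncr1, the NK cell receptor NKp46, was at 0.11 to 0.15 and 0.04 to 0.11 FPKM, or at most about 4 reads. The groups overlapped in Klrk1, and in Ncr1 they met at the same value.

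A shape recurred among these genes that the comparison of drugs does not show. In 11 of the 34 genes (32.4%), SASP mice 1 and 3 lay above all BBR mice while SASP mouse 2 did not. They were Cd8a, Cd8b1, Cd2, Cd6, Lat, Il2rb, Il2rg, Gzma, Gzmb, Nkg7 and Klrk1. The margin was small in some, as in Il2rb, where SASP mouse 3 was at 0.56 FPKM and BBR mouse 2 at 0.54 FPKM. Over all 18260 genes above 0 this shape was found in 3.09%, and among 66 further T and NK cell genes in 15 (22.7%). Some of those 15 rested on a few reads, as Tbx21 with about 2 reads in each BBR mouse and about 4, 2 and 4 in SASP mice. In Tnfrsf18 the margin was small, with SASP mouse 3 at 1.49 FPKM and BBR mouse 3 at 1.46 FPKM. The shape was noticed in the values, so it is a description and was not tested. SASP mouse 1 had the highest value of the 6 mice in 16 of the 34 genes, BBR mouse 2 in 11 and SASP mouse 3 in 4, whereas BBR mice 1 and 3 and SASP mouse 2 had it in 0, and the rest were ties. SASP mouse 2 was the lowest of the SASP mice in 21 of the 34 genes, where 23.0% of all genes above 0 were lowest in it. With SASP mouse 2 left out, 3 of the 34 genes were higher under BBR without overlap beside the 15 that were lower, where 25.8% of all genes were higher.

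The shape was also found in 3 of 10 B and plasma cell markers (Ms4a1, Pax5 and Blk) and in 4 of 10 pan-leukocyte markers (Ptprc, Cd53, Cd37 and Was). Cd79b, a chain of the B cell receptor, was at 0.33, 0.56 and 0.18 FPKM in the BBR group and 6.66, 1.42 and 2.95 FPKM in the SASP group, and was called lower under BBR (log2 fold change -1.63, limma adjusted p = 0.0489). Only the 3 SASP mice reached 1 FPKM, so Cd79b passed the filter only through the group where it was high. Its call therefore adds no support beyond these values. That call was lost without BBR mouse 1 or 2 (adjusted p = 0.111 and 0.103), with no filter (0.0811) and with no trend (0.0511), with log2 fold changes of -1.62, -1.74, -1.63 and -1.63, and without any 1 of the SASP mice Cd79b was below the filter. Ms4a1, a B cell surface protein, was at 0.14, 0.22 and 0.73 FPKM in the BBR group and 3.95, 0.43 and 1.92 FPKM in the SASP group. Of the 10 B and plasma cell markers, 5 were tested, and 1, Cd79b, was called lower and 0 higher, where 5.04% of all genes tested were called lower. In 4 of the 10 all BBR values lay below all SASP values, where 12.2% of all genes above 0 were lower without overlap. The whole list summed to 23.8 to 129 FPKM in the BBR group and 31.5 to 78.6 FPKM in the SASP group, and Jchain, a plasma cell gene, made up most of that sum in all BBR mice and in SASP mouse 2. The 6 B cell genes Ms4a1, Cd79a, Cd79b, Pax5, Cd22 and Blk, grouped after their values had been seen, summed to 2.14, 2.61 and 1.2 FPKM in the BBR group and 29.3, 4.74 and 14.7 FPKM in the SASP group. SASP mouse 1 was highest and SASP mouse 2 lowest of the SASP mice, the order also seen for Cd2, Lat and Gzmb. The 10 pan-leukocyte markers summed to 23.7, 34.7 and 20.5 FPKM in the BBR group and 65.1, 30.1 and 45.9 FPKM in the SASP group, with 0 of 9 tested genes called and 3 of 10 lower without overlap. Macrophage markers did not share the shape in any of 10 genes and summed to 109 to 170 and 165 to 187 FPKM. Granulocyte markers did not share it either, at a summed 192 to 567 FPKM in the BBR group and 357 to 536 FPKM in the SASP group. Ly6g alone made up most of that sum in every mouse, at 232, 190 and 552 FPKM in the BBR group and 329, 505 and 417 FPKM in the SASP group. The overlap of the sums is therefore that of Ly6g and hardly shows the other genes. Of the granulocyte markers, 1 of 5 tested was called lower, and 2 of 7, S100a8 and S100a9, were lower without overlap. The call was S100a8, a neutrophil calcium-binding protein, at 0, 0 and 6.19 FPKM in the BBR group and 18.5, 20.6 and 23.1 FPKM in the SASP group (log2 fold change -3.49, limma adjusted p = 0.0365). Its call was lost without any mouse other than BBR mouse 3, with log2 fold changes of -3.57 to -3.02, with no filter (-3.49) and with a pseudocount of 0.1 (-5.71). The part of B cells, granulocytes or all leukocytes in the T cell and NK cell values was not tested.

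Set against the CD3 genes of the same mouse, several roles parted the groups. The mean of Cd3d, Cd3e and Cd3g was 0.880, 1.03 and 0.750 FPKM in the BBR group and 0.963, 0.407 and 0.653 FPKM in the SASP group. Relative to it, cytokine receptor subunits averaged 0.912, 1.08 and 0.610 in BBR and 2.32, 2.39 and 2.72 in SASP mice, and cytotoxic granule genes 0.821, 0.903 and 0.450 against 2.36, 1.64 and 2.37. In both roles every SASP mouse, SASP mouse 2 included, was above every BBR mouse. Adhesion proteins averaged 0.193, 0.185 and 0.178 in BBR and 0.709, 0.246 and 0.607 in SASP mice. Proximal signalling genes averaged 0.716, 0.597 and 0.582 in BBR and 1.176, 0.869 and 1.235 in SASP mice. Even the receptor complex and coreceptors, which include the CD3 genes themselves, averaged 0.841, 0.948 and 0.842 against 1.142, 1.225 and 1.352. The split was thus not particular to 1 role. By contrast NK cell receptors, at 0.383, 0.620 and 0.578 against 0.280, 0.672 and 0.541, overlapped, as did costimulatory receptors and transcription factors. Single genes carried some of the role means. Without Il2rg the cytokine receptor subunits averaged 0.371, 0.422 and 0.280 in BBR and 0.713, 0.787 and 0.765 in SASP mice, still without overlap. The inhibitory receptors and ligand, lower in all BBR mice with Cd274, overlapped without it. Gene by gene, 16 of the 34 were lower and 0 higher under BBR without overlap, where 12.8% and 1.39% of all genes above 0 were. The ratios share a denominator of few reads, which was lowest in SASP mouse 2 and next lowest in SASP mouse 3. A low denominator raises the ratios of all roles in a mouse, so they are descriptions without a test.

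Among further genes of these cells, Ccl5 was higher under BBR than under SASP and was the only call. Of 73 further T and NK cell genes on a list, 66 were in the table and 20 were tested, of which limma called 1 higher and 0 lower under BBR (2 and 1 at an unadjusted p under 0.05), where 3.82% and 5.04% of all genes tested were called. Their median log2 fold change was 0.07, and that of all 66 was -0.03. Ccl5, a chemokine of cytotoxic lymphocytes and other cells, was at 3.39, 5.88 and 2.68 FPKM in the BBR group and 1.15, 0.62 and 1.47 FPKM in the SASP group. Every BBR value was above every SASP value, and limma gave a log2 fold change of 1.23 (SE 0.27) with an adjusted p = 0.0407. Leaving out any mouse but BBR mouse 3 ended this call, with log2 fold changes of 0.97 to 1.37, as did dropping the filter (1.23, adjusted p = 0.0709). Tyrobp, the DAP12 adaptor of NK and myeloid cells, and Plcg1, a phospholipase of receptor signalling, followed with adjusted p-values of 0.0751 and 0.149 and log2 fold changes of -0.53 and 0.42.

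Several low genes outside that rule are named after their values were seen. Ifng, the interferon gamma gene of T and NK cells, was listed at 0 in the 3 BBR mice and at 1.19, 0.30 and 0.21 FPKM in the SASP group. The groups did not overlap, but Ifng did not pass the threshold in limma with no filter (adjusted p = 0.153). Btla, an inhibitory receptor of B and T cells, was at 0.16 to 0.28 FPKM in the BBR group and 2.68, 0.31 and 1.03 FPKM in the SASP group. Ccr7, a homing receptor for lymphoid tissue, was at 0.17 to 0.28 FPKM in the BBR group and 0.92, 0.21 and 0.54 FPKM in the SASP group. The order among SASP mice in Btla and Ccr7 was that of the B cell genes. Among the 66 genes, all BBR values lay below all SASP values in 8 and above them in 2, Ccl5 and Hcst, where 12.2% and 18.5% of all genes above 0 did so.

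**Figure D4:**
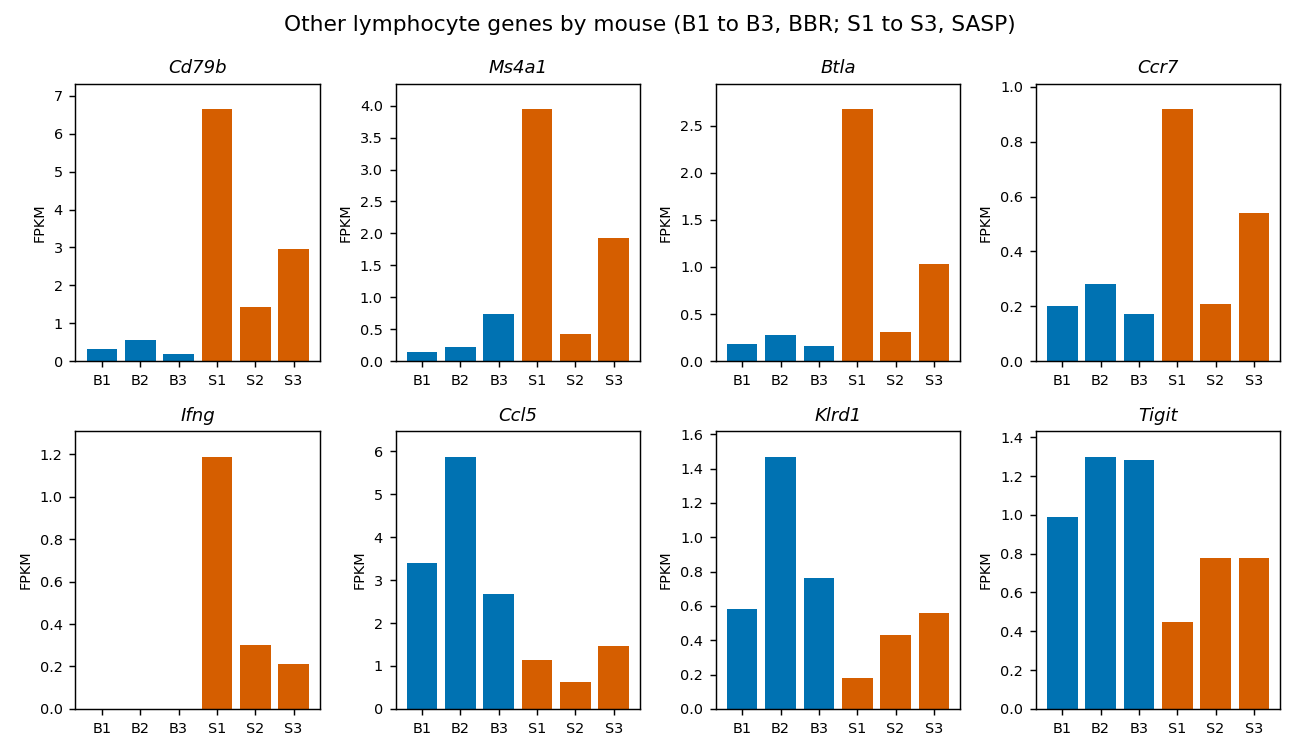
FPKM in each of the 3 BBR mice (B1 to B3, blue) and 3 SASP mice (S1 to S3, orange) for 2 B cell genes (Cd79b and Ms4a1) and 6 T and NK cell genes, each axis starting at 0. Cd79b, Ms4a1, Btla and Ccr7 are highest in S1 and lowest of the SASP mice in S2, Ifng has bars in SASP mice only, and Ccl5, Klrd1 and Tigit are higher in all BBR mice.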

How the data were processed

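Colorectal RNA of 3 BBR and 3 SASP mice was compared. Groups follow the treatment labels. Replicate numbers follow accession order and pair no mice. The deposited table holds FPKM values per gene and sample, rounded to 2 decimals, which the authors calculated with RSEM 1.2.12 after SOAPnuke filtering and Bowtie2 2.2.5 alignment, per the study's methods and the submitters' processing notes. The notes name the mm9 build, so no coordinates of the files are printed. The methods describe ribosomal RNA depletion and short single-end reads, and the labels another library kit, a difference that is not resolved here. RSEM divides reads among similar genes, so values of close paralogs are uncertain.

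FPKM are not counts, so log2(FPKM + 1) values were compared in R 4.3.3 using limma 3.58.1, its moderated variances with a mean-variance trend, and Benjamini-Hochberg adjustment over 12072 genes with at least 1 FPKM in at least 3 samples. Tests were two-sided. Fold changes on this scale understate changes of low genes. The fit was tested on simulated data. With 3 mice a group, an exact permutation p cannot go below 0.10. No pair of libraries shared more than 0.389% identical values over the tested genes. The p-values weigh the difference between the groups against the spread among the mice within them. The labels do not say how the mice were housed, so whether housing differed between the groups is not known.

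Read numbers are approximate. Depth was estimated from genes above 0 in 1 library, with 1 RefSeq-linked GENCODE M21 transcript under 1500 bases, taking the typical value as 1 read (27 to 51 genes per library), and reads per gene from its longest such transcript.

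The members and lists were chosen with earlier results of these data known. Named genes were all 34 members and the 3 other T and NK cell genes with the smallest p. Alternatives were a pseudocount of 0.1, no filter, median-ratio scaling, quantile normalization, no trend, array weights and leaving out each mouse. Promoters were taken from RefSeq, GRCm38.p6.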

Additional observations from a re-analysis of the deposited data

How the results depend on the processing

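The count of T cell and NK cell genes called lower, 1 in the main comparison, was 2 with no filter, 3 with array weights (Cd274, Il2rg and Nkg7) and 0 to 1 over the fits without 1 mouse each, with 0 without BBR mouse 1, SASP mouse 1 or SASP mouse 3; 0 were called higher throughout. Of the other T and NK cell genes, 1 was called higher and 0 lower. With no filter 0 were higher, with array weights 3 were higher and 4 lower, and median-ratio scaling and quantile normalization each gave 2 lower. Leaving out single mice gave 0 to 2 higher and 0 lower. The median of the tested genes was -0.97 with a pseudocount of 0.1, -0.084 with no filter and -0.78 to -0.31 with a mouse left out. The median of all 34 genes was -0.26 with a pseudocount of 0.1 and -0.15 to -0.025 with a mouse left out. A smaller pseudocount enlarges differences of low genes by construction, and a fit without a filter covers all 34 genes. Cd3g turned to -0.018 without SASP mouse 2 (up to 0.27 without another mouse), and Lck to 0.054 with array weights. The cause of the other changes was not tested. Cd274 kept its direction in all alternatives, and its call in all but 3 of those that left out a mouse. Most of the 34 genes rest on fewer than 100 reads, which limits any comparison of them. No paired analysis was possible because the labels give the groups no shared replicate numbers.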
